A study of Mus musculus with 6 samples.

Results

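The keratins Krt5, Krt7, Krt8, Krt14, Krt15, Krt17, Krt18, Krt19, Krt20 and Krt23 were compared between AC29 and AB1, the mouse malignant mesothelioma lines of this series. The genes were taken by symbol from the array's annotation, and all 10 were among the 18193 genes measured; 38 other keratin genes were measured as well. AC29 (CBA strain) was used at passage 60 and AB1 (BALB/c strain) at passage 40; the labels give both strains' animals as female and 6 to 8 weeks old. Both are established lines that arose after asbestos exposure, grown in T75 flasks and harvested at 80% confluency. Each line gave 3 flasks with 1 Affymetrix array per flask, named by the sample numbers 13, 14 and 15 for AC29 and 4, 5 and 6 for AB1. Each strain is represented by 1 line, so strain, passage, line and any processing batch cannot be told apart, and each p-value reflects variation among flasks only.

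Keratins are the intermediate filament proteins of epithelial cells. A filament forms from pairs of an acidic type I and a basic type II keratin, and which pair a cell makes marks its kind of epithelium: Krt8 with Krt18 in simple, single-layered epithelia, Krt7 and Krt19 in ducts and in mesothelium, and Krt5 with Krt14 in the basal layer of stratified epithelia. Mesothelial cells, the lining of the body cavities, are unusual in carrying simple keratins together with vimentin, and keratin staining is used in human pathology to identify mesothelioma.

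The deposited values were log2 intensities from RMA, a method that corrects background, normalizes arrays and summarises the probes of a probe set. Array medians ran from 5.76 to 5.81. Taken across genes, the Pearson correlation was 0.995 to 0.997 within AC29, 0.997 to 0.998 within AB1 and 0.937 to 0.938 between the lines, as a description over genes that are not independent. The second principal component, with 2.86% of the variance, set AC29 replicate 14 apart from the other arrays. A floor of 6.07, the 95th percentile of 86 probe sets of olfactory, vomeronasal and taste receptors, marked the range in which a value may be background, and 7.23, their 99th percentile, is called the upper mark below. Where no array of a line exceeded the floor, the fold was computed against the floor and is a lower bound. Calls required an adjusted p under 0.05 in limma, with Benjamini-Hochberg adjustment over all genes, and an absolute log2 difference, AC29 minus AB1, of at least 1.

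The simple-epithelial keratins Krt7, Krt8, Krt18 and Krt19 and the basal keratin Krt14 were called, all 5 higher in AC29; none was lower, and the other 5 did not pass the rule. Over all genes, 5.12% were called higher and 5.82% lower in AC29 (10.9% in either direction). The median log2 difference of the 10 keratins was 0.93, against -0.0047 over all genes. In 6 of the 10 every AC29 array was above every AB1 array and in 1 every AC29 array was below; over all genes these shares were 24.8% and 25.4%. On every AC29 array 6 keratins exceeded the floor (Krt5, Krt7, Krt8, Krt14, Krt18 and Krt19). Krt18 alone exceeded it on every AB1 array, while Krt5 and Krt19 did so on 2 of the 3. Over all genes, 10441 of 18193 exceeded the floor on every AC29 array and 10478 on every AB1 array. Krt7, Krt8 and Krt14, 3 of the 10, were called higher and exceeded the floor on no AB1 array, as did 1.93% of all genes. When limma tested against a 2-fold difference itself, 4 of the 10 were higher, and 3.11% of all genes.

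**Figure D1:**
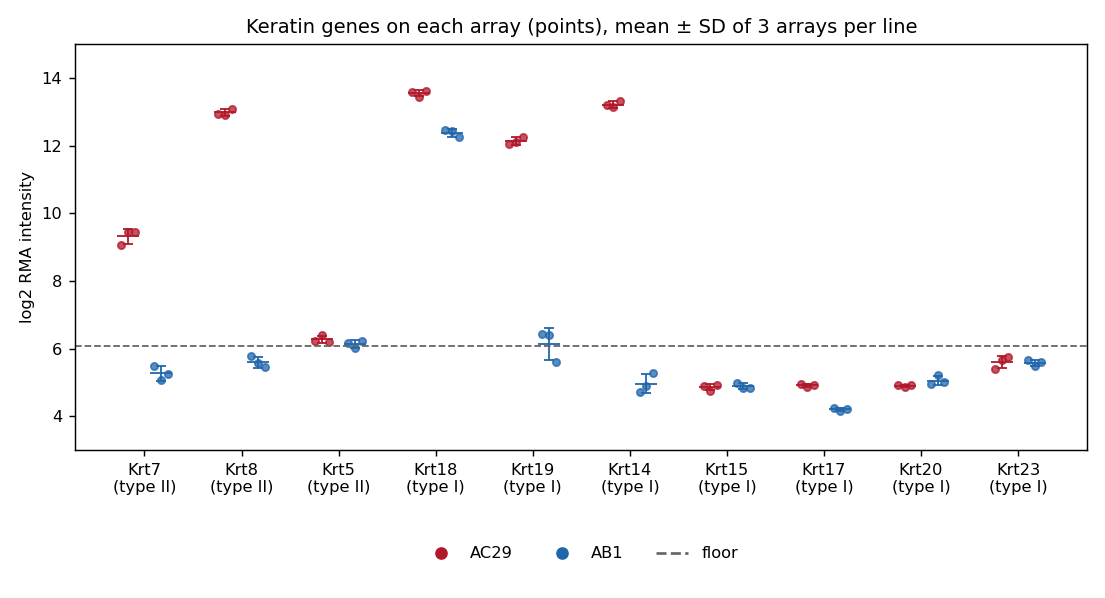
Log2 RMA intensity of each keratin (vertical axis) on the 3 AC29 arrays (red, left of each pair) and the 3 AB1 arrays (blue, right); points are arrays, bars are the mean ± SD, and the dashed line is the floor of 6.07. Krt8, Krt14 and Krt19 lie above 12 in AC29 and near or under the floor in AB1, Krt7 lies above 9 in AC29, and Krt18 is bright in both lines.

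Among the type II keratins, Krt8, the partner of Krt18 in simple epithelia, read 12.93, 12.91 and 13.09 in AC29, against 5.78, 5.57 and 5.46 in AB1. The lines were far apart and no AB1 array exceeded the floor. The log2 difference was 7.37 ± 0.11 (SE, 3 arrays per line), at least 120-fold higher in AC29 (limma adjusted p = 2.36e-10). Krt7, a keratin of ducts and mesothelium, read 9.05, 9.44 and 9.46 in AC29, against 5.50, 5.06 and 5.26 in AB1. Again no AB1 array was above the floor, and Krt7 was at least 9.48-fold higher in AC29, with a log2 difference of 4.04 ± 0.14 (SE; limma adjusted p = 3.64e-08). Krt5, the type II keratin of the basal layer, read 6.23, 6.40 and 6.20 in AC29 and 6.17, 6.02 and 6.24 in AB1. The lines overlapped for Krt5, every value was under the upper mark of 7.23, and the difference of 0.13 (95% interval -0.09 to 0.35) did not pass (limma adjusted p = 0.338).

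Among the type I keratins of simple epithelium, Krt18 was high in both lines. It read 13.57, 13.44 and 13.62 in AC29, against 12.47, 12.43 and 12.25 in AB1. The arrays did not overlap, and Krt18 was 2.24-fold higher in AC29, with a log2 difference of 1.16 ± 0.10 (SE; limma adjusted p = 1.05e-05). The 95% interval of the Krt18 difference, 0.95 to 1.38, reached under the 2-fold minimum. The difference was 1.10 to 1.22 when each array was left out in turn. Krt18 did not pass when limma tested against a 2-fold difference itself (adjusted p = 0.721). The smallest adjusted p among the alternatives, 1.34e-06, came from limma with other moderation, tested against no difference. Krt19, a type I keratin of simple epithelia and mesothelium with a very short tail, read 12.05, 12.10 and 12.26 in AC29, against 6.44, 6.41 and 5.61 in AB1. Here 2 of the 3 AB1 arrays were just above the floor, and Krt19 was 63.4-fold higher in AC29, with a log2 difference of 5.99 ± 0.20 (SE; limma adjusted p = 2.67e-08).

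In AB1, Krt18 was bright while no Krt8 probe set exceeded the floor on any array. Counting keratins that exceeded the upper mark of 7.23 on all 3 arrays of a line gave 4 type II and 4 type I genes in AC29 and 2 type II and 3 type I genes in AB1, of 23 type II and 25 type I genes measured. In AC29 they were Krt7, Krt8, Krt80 and Krt81 of type II and Krt14, Krt18, Krt19 and Krt42 of type I. In AB1 they were Krt80 and Krt81 of type II and Krt10, Krt18 and Krt42 of type I. Krt10 also exceeded the mark on AC29 replicate 14 (7.47). Over all genes, 8031 of 18193 exceeded it on all 3 AC29 arrays and 8164 on all 3 AB1 arrays. The levels of different probe sets are not comparable, so these counts say nothing of the balance of partner proteins.

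The difference of Krt14, the type I keratin of basal cells, was the widest of the 10 keratins and ranked 3 of all 18193 genes toward AC29. Krt14 read 13.19, 13.13 and 13.32 in AC29, against 4.72, 4.90 and 5.28 in AB1. With AB1 under the floor throughout, it was at least 141-fold higher in AC29 (log2 difference 8.24 ± 0.14, SE; limma adjusted p = 4.59e-10). Ranks among such genes rest on values under the floor; Krt8 ranked 8, Krt19 26, Krt7 84 and Krt18 749. Krt5, which pairs with Krt14 in basal epithelium, did not pass, as given above.

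The 4 remaining keratins of the 10, Krt15, Krt17, Krt20 and Krt23, were under the floor. Krt15, found in basal cells and the hair bulge, gave 4.76 to 4.93 in AC29 and 4.85 to 5.00 in AB1. Krt17, found in appendages and in wounded epidermis, read 4.96, 4.87 and 4.92 in AC29, against 4.25, 4.16 and 4.23 in AB1, all under the floor. The Krt17 arrays did not overlap and limma gave an adjusted p = 9.29e-05, but the difference of 0.70 was under the 2-fold minimum and no fold is given under the floor. Krt20, a keratin of gut epithelium, read 4.93, 4.86 and 4.92 in AC29 and 4.95, 5.22 and 5.01 in AB1, a difference of -0.15 that did not pass (limma adjusted p = 0.254) although its arrays did not overlap. Krt23 read 5.41 to 5.75 in AC29 and 5.49 to 5.66 in AB1.

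The 3 AC29 flasks agreed closely in the keratins they carried. Of the 5 called keratins, Krt8, Krt14 and Krt18 were lowest on replicate 14 and all 5 were highest on replicate 15, with SDs from 0.09 for Krt18 to 0.23 for Krt7. The widest spread in AB1 was that of Krt19 (SD 0.47), whose replicate 6 fell under the floor. All of these spreads are small beside the differences of Krt7, Krt8, Krt14 and Krt19, and the called keratins kept their direction when AC29 replicate 14 was left out.

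Other probe sets of the same genes were read as a check, and 3 of the 10 keratins had more than 1. Krt8 had 3 probe sets, with log2 differences of 7.37, 7.55 and 6.87, each with no AB1 array above the floor. The 2 bright Krt14 probe sets differed by 8.24 and 8.07, with 12.74 to 13.02 in AC29 and 4.50 to 5.10 in AB1 for the second of these. The remaining Krt14 probe set was near the floor: it read 5.82, 6.60 and 5.54 in AC29, against 4.78, 4.93 and 4.78 in AB1, a difference of 1.15, with AC29 replicate 14 the only array above the floor. The second Krt17 probe set differed by 0.13, under the floor in both lines. The chosen Krt14 probe set and 2 of the Krt8 probe sets carry the array's suffix for probes that can bind related transcripts, while the second bright Krt14 probe set does not. A further probe set was annotated to both Krt17 and Krt14 and was not used.

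**Figure D2:**
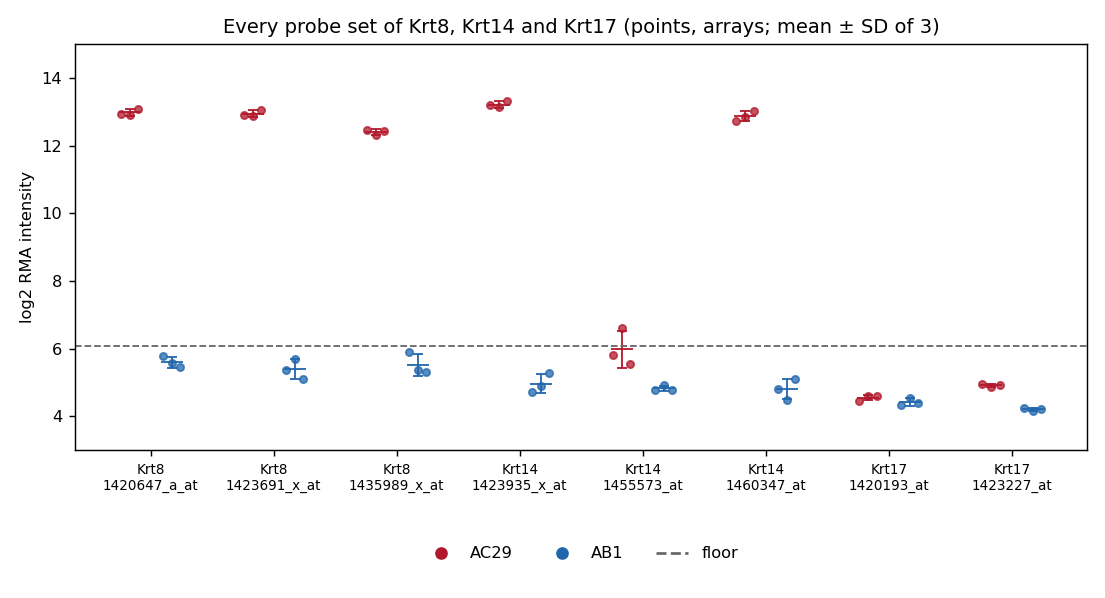
Log2 RMA intensity (vertical axis) of every probe set of Krt8, Krt14 and Krt17 on the AC29 arrays (red, left) and the AB1 arrays (blue, right), with the mean ± SD of 3 arrays and the floor dashed. The 3 Krt8 probe sets and 2 of the 3 Krt14 probe sets show the same separation, and the remaining Krt14 probe set and both of Krt17 lie near or under the floor.

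Of the 38 other keratins measured, none was called higher in AC29 and 1, Krt13, was called lower, against 5.12% and 5.82% of all genes. The median difference of the 38 was -0.0019. Krt13, a keratin of internal stratified epithelia, read 5.05, 5.03 and 4.81 in AC29, against 6.75, 6.73 and 6.50 in AB1, a log2 difference of -1.69 (limma adjusted p = 1.68e-06) and at least 1.50-fold lower in AC29. Its AB1 values were under the upper mark, its 2 other probe sets were under the floor, and the mean of its probe sets did not pass (-0.75). Krt80, a widely expressed type II keratin of epithelia, read 8.84, 8.86 and 9.05 in AC29, against 7.99, 7.76 and 8.01 in AB1. Its difference of 0.999 lay at the 2-fold minimum (limma adjusted p = 4.73e-05) and ran from 0.921 to 1.04 over the alternatives, past it with quantile normalization and without AC29 replicate 13, AC29 replicate 14, AB1 replicate 4 or AB1 replicate 6. Krt10, found in the upper epidermis, read 7.14, 7.47 and 7.05 in AC29 and 7.67, 7.75 and 7.56 in AB1 and did not pass (-0.44). Krt42 differed by 0.18 by a probe set marked for related transcripts, and Krt81, a hair keratin, by -0.08. The remaining keratins with an array above the floor were Krt6a, Krt31, Krt33b, Krt34, Krt71, Krt72, Krt78, Krt83, Krt84 and Krt88, with differences between -0.37 and 0.22. In 23 of the 38 no array of either line exceeded the floor.

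**Figure D3:**
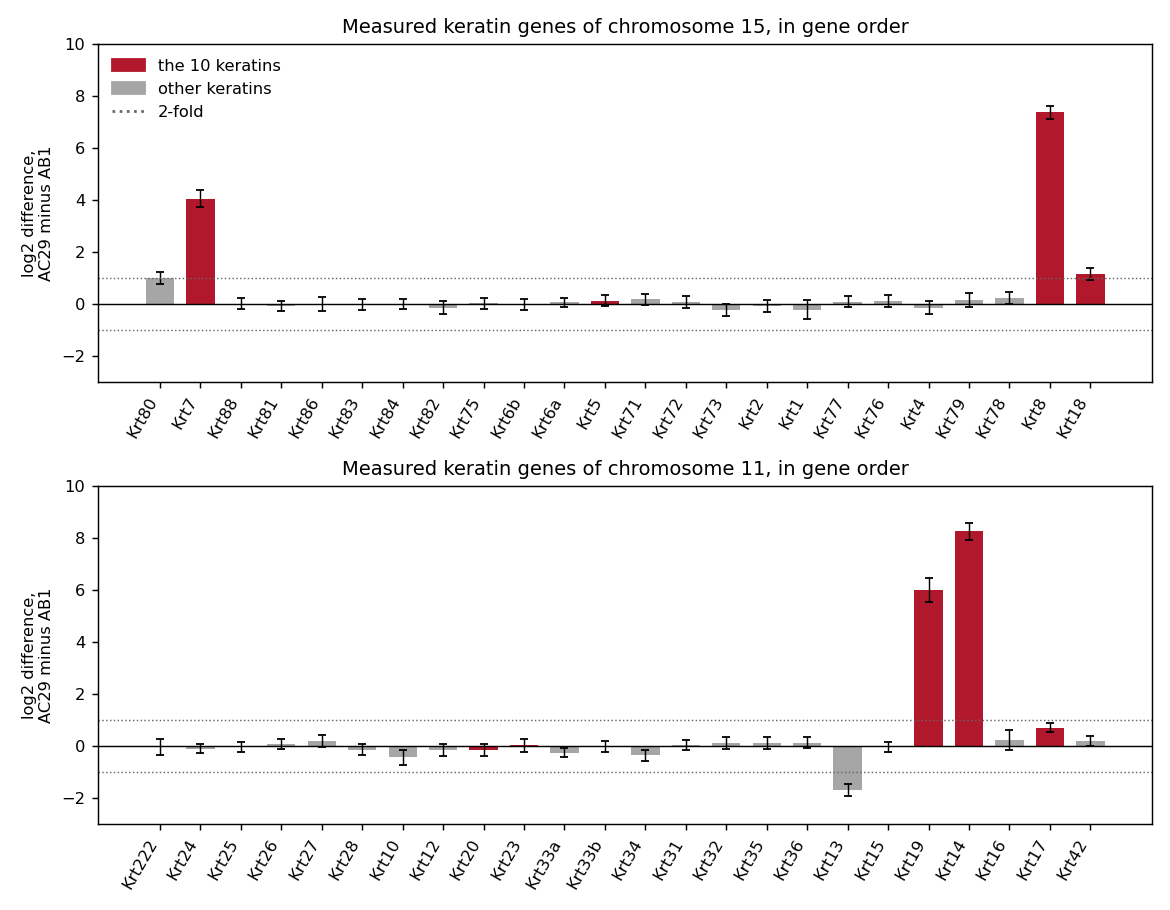
Log2 difference, AC29 minus AB1, of each measured keratin gene (bars, with 95% intervals from limma) in the order of the genes along chromosome 15, which holds the type II genes and Krt18, and chromosome 11, which holds the other type I genes; red bars are the 10 keratins and dotted lines mark 2-fold. Krt7, Krt8, Krt14 and Krt19 stand out from most of their neighbours, and Krt13 is the only bar past 2-fold in the negative direction.

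The genes sit in the keratin clusters of chromosomes 15 and 11. Krt7, Krt8, Krt14 and Krt19 each lay beside a measured keratin that was not called. In the gene order of the RefSeq table for GRCm38.p6, Krt8 and Krt18 are next to each other at the end of the chromosome 15 cluster. On the cluster side of Krt8, Krt78 differed by 0.22 and Krt79 by 0.16, and beyond Krt18 the translation factor gene Eif4b differed by -0.03 and Tns2 by 0.37; none was called. Krt7 has Krt80 on one side and Krt88 (0.02) past an unmeasured neighbour on the other. On chromosome 11, Krt19 and Krt14 are separated by Krt9, which was not among the measured genes. Beyond Krt14 lie Krt16 (4.54, 5.16 and 4.51 in AC29, against 4.61, 4.29 and 4.62 in AB1) and Krt17, and before Krt19 lie Krt15 and Krt13. The genes flanking the Krt19 to Krt14 stretch were thus under the floor in AC29.

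The 250 bases before the annotated start are shown for the called keratins whose RefSeq promoter window lies at the outer start of the gene. Windows were listed for 7 of the 10 keratins, and that of Krt14 lies inside the gene and is not shown. Sequences are RefSeq, GRCm38.p6, 5′ to 3′ on the strand of the gene. Capitals mark matches, on either strand, to TATAAA (the TATA box), GGGCGG (the GC box), TGANTCA (the AP-1 motif) and CAGGTG (an E-box of the kind bound by Snai and Zeb repressors). The Krt8 window is chr15:102004343-102004592 on the minus strand, Krt18 chr15:102027966-102028215 on the plus strand and Krt7 chr15:101412153-101412402 on the plus strand.
Krt8: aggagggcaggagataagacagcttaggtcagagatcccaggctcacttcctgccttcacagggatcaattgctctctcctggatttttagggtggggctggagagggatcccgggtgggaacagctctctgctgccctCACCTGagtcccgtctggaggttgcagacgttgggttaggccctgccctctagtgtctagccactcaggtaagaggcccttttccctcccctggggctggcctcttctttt
Krt18: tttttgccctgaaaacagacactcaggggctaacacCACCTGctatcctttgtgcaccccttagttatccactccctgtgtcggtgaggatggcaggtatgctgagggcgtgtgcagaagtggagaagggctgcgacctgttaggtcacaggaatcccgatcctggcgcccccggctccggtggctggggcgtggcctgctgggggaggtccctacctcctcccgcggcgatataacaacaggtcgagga
Krt7: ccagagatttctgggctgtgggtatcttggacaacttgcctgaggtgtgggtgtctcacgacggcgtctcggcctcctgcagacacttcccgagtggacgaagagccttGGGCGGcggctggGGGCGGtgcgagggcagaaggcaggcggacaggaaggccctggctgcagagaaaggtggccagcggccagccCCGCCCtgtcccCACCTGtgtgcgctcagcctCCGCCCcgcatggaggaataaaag
Each of the 3 windows holds CAGGTG on the opposite strand, which reads CACCTG in the sequences above. The first base of CACCTG lies 111 bases before the start in Krt8, 214 in Krt18 and 44 in Krt7. Krt5 and Krt23, which were not called, also have 1 CAGGTG match each, on the strand of the gene in Krt5. Thus 5 of the 6 windows at gene starts hold CAGGTG on either strand, and of 32851 RefSeq windows of this length 17.2% do. GGGCGG was found 4 times in Krt7 and in no other of the 6 windows (32.7% of all windows hold it), TATAAA in Krt20 alone (12.4%) and TGANTCA in none (6.75%). No 2 matches overlapped. A match is a description of the letters, and no binding was measured here.

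The genes whose profiles over the 6 arrays were most like those of the called keratins were looked up by the root mean square difference of gene-centred log2 values. The 5 nearest to Krt8 outside the keratins were Upk3b (0.119), Zic1 (0.173), Stk26 (0.204), Tmem98 (0.226) and Tspan8 (0.241). Those nearest to Krt14 were Frmd4b (0.305), Tspan8 (0.309), Stk26 (0.340), Gpm6a (0.344) and Tmem98 (0.404), and those nearest to Krt18 were Gxylt2 (0.0541), Fads1 (0.0553), Ndufv3 (0.0556), Itga3 (0.0585) and Lrrc20 (0.0598). With 2 lines, this likeness is mostly a like size of the difference between them, and the neighbours of Krt8 and Krt14 were all under the floor in AB1.

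**Figure D4:**
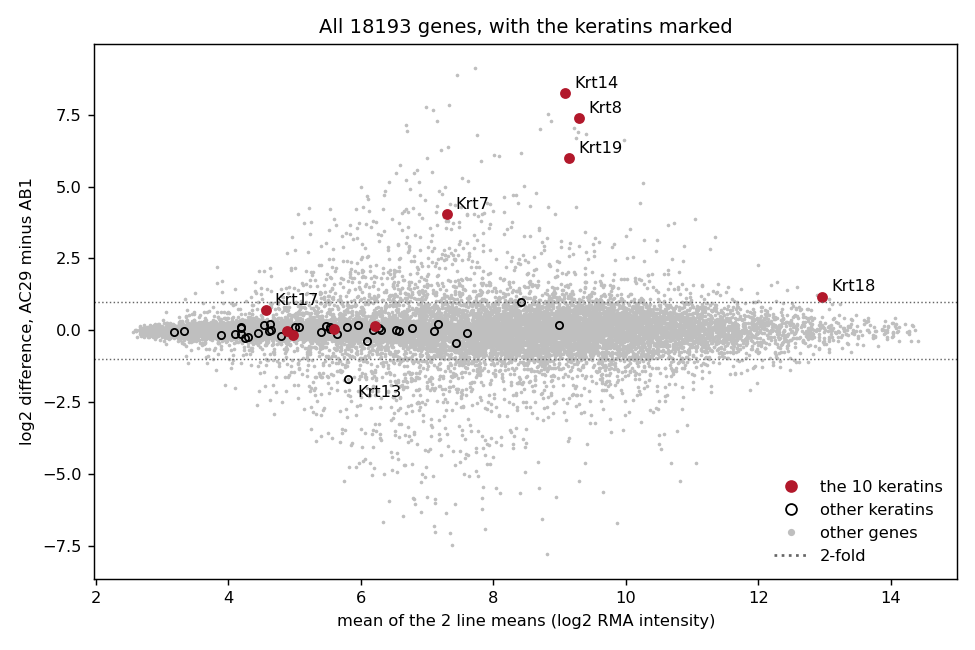
Log2 difference, AC29 minus AB1 (vertical axis), against the mean of the line means in log2 RMA intensity (horizontal axis) for the 18193 genes, with the 10 keratins in red, the other keratins as open circles and 2-fold as dotted lines. Krt14, Krt8 and Krt19 lie at the upper edge of all genes, Krt18 lies to the right at 2.24-fold, and the other keratins lie between the 2-fold lines apart from Krt13.

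Of 15 genes of other intermediate filament classes measured, 1 was called higher and 3 lower in AC29 (median difference -0.14), against 5.12% and 5.82% of all genes. Vim, vimentin, the type III filament of mesenchymal and mesothelial cells, averaged 13.53 ± 0.10 in AC29 and 14.08 ± 0.05 in AB1 (SD, n = 3 each) and did not pass the 2-fold minimum (-0.55). Nes, nestin, averaged 8.11 ± 0.09 in AC29 and 9.34 ± 0.02 in AB1 (SD, n = 3 each) and was 2.34-fold lower in AC29 (limma adjusted p = 2.87e-06). Another Nes probe set differed by only -0.38, with means of 6.16 in AC29, where 2 of 3 arrays were above the floor, and 6.54 in AB1. Nefl, the light neurofilament, read under the floor in AC29 and 7.28 ± 0.12 in AB1 (SD, n = 3), at least 2.32-fold lower in AC29. Nefm was called lower but was under the floor in both lines. Lmnb1, a nuclear lamin, was 2.10-fold higher in AC29, and Lmna (12.07 in AC29 and 12.60 in AB1) did not pass.

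Jup, Ppl, Evpl and Pkp2, whose products tie filaments to junctions or to the cell envelope, were higher in AC29. Of 21 linker genes measured, 4 were called higher and 1 lower (median difference 0.21), against 5.12% and 5.82% of all genes. Jup, plakoglobin of desmosomes and adherens junctions, averaged 10.42 ± 0.21 in AC29 and 7.22 ± 0.18 in AB1 (SD, n = 3 each), 9.20-fold higher (limma adjusted p = 9.12e-08). The plakins Ppl at 5.51-fold (2 of 3 AB1 arrays above the floor) and Evpl at 3.09-fold, which line the cell envelope and bind keratin, and the desmosome protein Pkp2 at 2.51-fold were also higher in AC29, each reading near the floor in AB1 (6.18, 6.33 and 6.47). Itga6, an integrin chain of hemidesmosomes, was 2.46-fold lower in AC29. Plec, plectin, which crosslinks filaments, averaged 10.71 in AC29 and 11.67 in AB1 and did not pass the minimum (-0.97), nor did Pnn (0.19). Dsp, desmoplakin, the main keratin anchor of desmosomes, was under the floor on all arrays.

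Most regulators of epithelial genes were not called, while Twist1, Twist2 and Zeb2, known to repress epithelial genes or promote mesenchyme, were lower in AC29. Of 23 activators and epithelial splicing regulators measured, 2 were called higher and 2 lower (median difference 0.0065), against 5.12% and 5.82% of all genes. Foxa2, a forkhead factor of endoderm, was at least 4.76-fold higher in AC29. Esrp2, which regulates epithelial splicing, was called higher, with means of 8.47 in AC29 and 6.03 in AB1 and 1 of 3 AB1 arrays above the floor. Klf5 was 4.00-fold lower in AC29, and another Klf5 probe set differed by -0.98. Cebpa was called lower, with means of 6.06 in AC29, where 1 of 3 arrays was above the floor, and 8.55 in AB1; the difference of -2.49 rests on values at the floor. Cebpb (0.70) and Klf4 (-0.22), bright in both lines, did not pass, and Trp63, the basal-cell factor that drives Krt5 and Krt14 in epidermis, was under the floor, at 4.94 in AC29 and 4.97 in AB1. Of 6 repressors, 3 were called lower and none higher (median difference -1.19), beside the same shares of all genes. Twist2 averaged 8.21 ± 0.16 in AC29 and 11.29 ± 0.07 in AB1 (SD, n = 3 each), 8.46-fold lower in AC29 (limma adjusted p = 2.22e-08), Twist1 was 5.12-fold lower and Zeb2 3.08-fold lower, with 2 of 3 AC29 arrays above the floor for Zeb2. Snai2 (-0.75) and Zeb1 (-0.62) did not pass the minimum.

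Markers of cell types were read beside the keratins. Of 11 mesothelial markers, 9 were called higher in AC29 and none lower, against 5.12% and 5.82% of all genes. The sum of the log2 values of the 11 was 112.6 to 113.7 on the AC29 arrays and 66.0 to 67.3 on the AB1 arrays. The 9 became 8 without AC29 replicate 14, without probe sets marked for related transcripts, and against a 2-fold test. Pdpn was among the 9 and read 10.09, 10.92 and 10.02 in AC29. Gpm6a (at least 56.5-fold), Upk3b (at least 86.9-fold), Bnc1 (at least 26.3-fold) and Upk1b (at least 91.4-fold) led the list. In AB1, 7 of the 11, including Wt1, the mesothelial transcription factor, were under the floor on every array. These markers of its labelled origin were thus not seen above the floor. Efemp1 (12.19 in AC29 and 10.59 in AB1), Pdpn (10.34 in AC29 and 9.18 in AB1) and Msln (10.41 in AC29 and 9.67 in AB1) were above the floor in both lines. Calb2 (6.58 in AC29 and 6.43 in AB1) was near it. The part of these genes in the keratin differences was not tested.

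Of 17 keratinocyte markers, 3 were called higher in AC29 and 1 lower, against 5.12% and 5.82% of all genes, with sums of 94.5 to 95.9 in AC29 and 86.2 to 87.4 in AB1. In 11 of the 17 no array of either line exceeded the floor, so much of each sum may be background. Sbsn was called higher, with means of 9.73 in AC29 and 5.91 in AB1, where 1 of 3 arrays was above the floor; its 2 other probe sets differed by 4.18 and 1.51. Perp, a desmosome protein, was at least 5.12-fold and Dmkn at least 1.41-fold higher in AC29, and Lgals7 was at least 12.6-fold lower. Trp63, Dsc3, Dsg1a, Ivl, Sfn and Krtdap were under the floor in both lines, and Lor (7.39 in AC29 and 7.18 in AB1) and Itgb4 (0.72) did not pass. Of 11 glandular markers, Cdh1, E-cadherin, was called higher but was under the floor in both lines, with sums over the list of 60.5 to 62.3 in AC29 and 59.5 to 61.0 in AB1. In 7 of these 11 no array of either line exceeded the floor. Epcam, by a probe set marked for related transcripts, averaged 8.04 in AC29 and 7.46 in AB1. Cldn3 averaged 7.06 in AC29 and 7.05 in AB1, and neither gene passed.

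**Figure D5:**
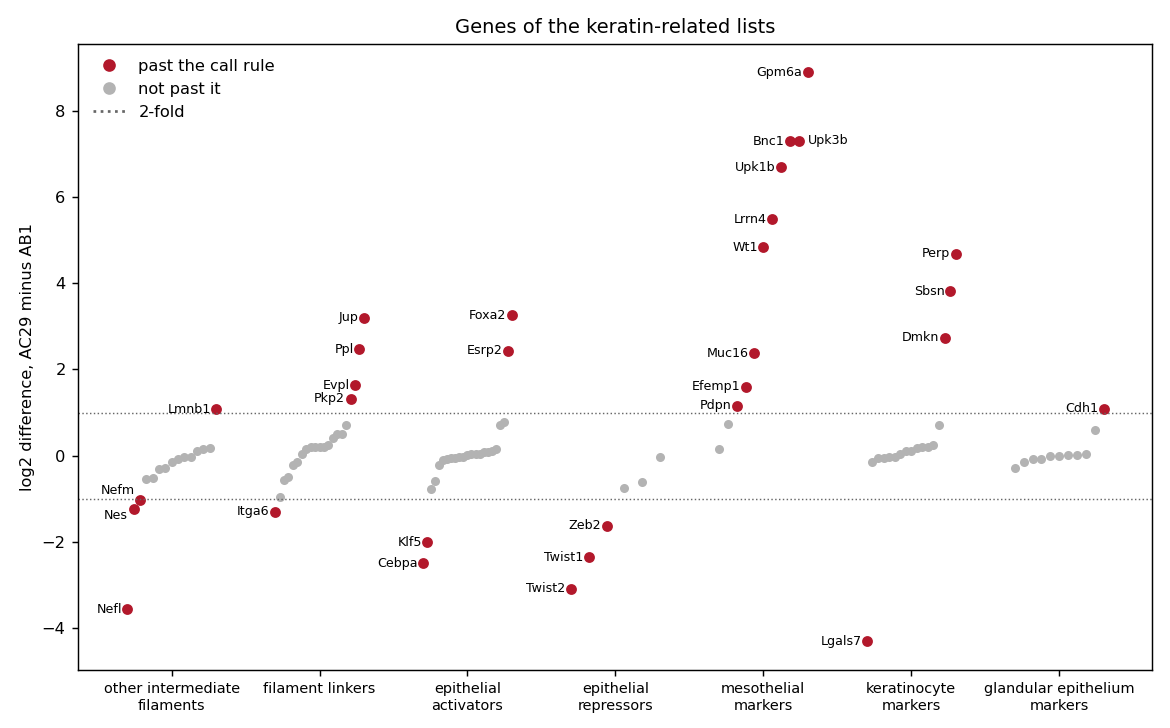
Log2 difference, AC29 minus AB1 (vertical axis), of every measured gene of 7 lists related to keratins (horizontal axis); red points passed the call rule and are named, grey points did not, and dotted lines mark 2-fold. The mesothelial markers lie highest, led by Gpm6a, and the repressors lie at or below 0, led by Twist2.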

How the data were processed

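Total RNA from 3 flasks each of AC29 and AB1 was labelled with biotin from 5 ug and hybridised to Affymetrix 3′ arrays, per the labels' protocols. The table that the authors deposited gives log2 values of 45101 probe sets on each array. GCOS, RMA and Partek 6.4 are listed, without roles, in the submitters' processing notes. The log2 scale was taken from these notes and the range of the values. RMA draws dim values together. Scan dates and probe-level intensities were not used here.

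Control probe sets (64) were left out. Of the rest, 34945 had 1 gene symbol in the platform's annotation, 932 several and 9160 none. For each gene the single-symbol probe set brightest on average over the 6 arrays was used. The lines were compared with limma 3.58.1 in R 4.3.3 (lmFit, eBayes, 2-sided; 4 residual degrees of freedom), and p-values were adjusted over 18193 genes. The script was tested on simulated data. Precision is limited by having 3 arrays per line, and the standard error had a median of 0.0999 over genes.

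The 10 keratins and the 9 gene lists (117 of 123 genes measured) were chosen with earlier results of these data known. Named were all 10 keratins, other keratins called or above the floor on an array, and, per list, the 4 largest calls each way and the 2 brightest genes without a call. Wt1, Efemp1, Pdpn, Snai1, Trp63, Dsp, Ptprc, Pecam1 and the keratinocyte markers given as under the floor were chosen after their values were seen. Of 16 other probe sets above the floor on all 3 arrays of a line for called list genes, 16 moved in the same direction and 14 passed the rule. Dim probe sets were left out, so this agreement is partly set by the choice. Those of Gpm6a, Upk1b and Upk3b, among others, read under the floor in AB1. With values averaged over every probe set per gene, linkers called higher fell from 4 to 3. Repressors called lower and other intermediate filament genes called lower each fell from 3 to 2. The other list counts stayed the same.

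Alternatives were 3 normalizations, other choices of probe set, a filter on dim genes, other moderation and array weights, limma's treat, other thresholds and floors, and leaving out each array.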

Additional observations from a re-analysis of the deposited data

How the results depend on the processing

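The 5 keratins called higher in AC29 kept their direction under all alternatives, and Krt7, Krt8, Krt14 and Krt19 passed the rule under each of them, with log2 differences of 3.94 to 4.18, 7.26 to 7.46, 5.82 to 8.40 (5.82 on the mean of the 3 Krt14 probe sets, of which the dimmest gave 1.15 alone) and 5.71 to 6.13. Krt18 was lost against a 2-fold test (adjusted p = 0.721). Counting every probe set on its own gave 9 keratin probe sets higher, and over all symbols 1749 higher and 1840 lower, because a gene can then count more than once. The 932 genes higher and 1059 lower in AC29 became 565 and 672 against a 2-fold test and 3475 and 3630 with no minimum fold. With the 90th percentile (5.68) as the floor, 2 keratins in place of 1 exceeded it on every AB1 array. With that floor the bounds for Krt7 and Krt14 were 12.4 and 184, and Krt8 had a measured fold of 166, since 1 AB1 array then exceeded the floor. With the 99th percentile the bounds for Krt7, Krt8, Krt14 and Krt19 were 4.26, 53.9, 63.2 and 30.1. Differences near 0 changed sign: Krt23 to -0.0209 with array weights and between -0.0433 and 0.128 without single arrays, and Krt15 between -0.0698 and 0.0141. Krt17 passed only with no minimum fold, and the other keratins called higher numbered 1 in place of 0, Krt80, under the settings named with it and with no minimum fold. The scalings moved the median of all genes by -0.0018 to -0.019. No paired analysis was possible because the lines share no replicate numbers. Values near the floor limit what can be said of Krt5, Krt15, Krt17, Krt20 and Krt23.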

Other observations

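Of 7 measured genes whose products bind or cleave keratins, 1 was called higher in AC29 and none lower, against 5.12% and 5.82% of all genes. Their median log2 difference was 0.32. Hspb1, a small heat shock protein found with intermediate filaments, averaged 11.08 ± 0.15 in AC29 and 7.67 ± 0.06 in AB1 (SD, n = 3 each), 10.6-fold higher in AC29 (limma adjusted p = 9.72e-09). The chaperone Hspa8 (14.02 in AC29 and 13.89 in AB1) and the 14-3-3 protein Ywhae (13.32 in AC29 and 13.23 in AB1) did not pass.

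Of 8 measured leukocyte and endothelial markers none was called by limma in either direction, against 10.9% of all genes. With no minimum fold 1 was higher (Lyz2) and 1 lower (Cd68) in AC29, beside 3475 higher and 3630 lower of all 18193 genes. Lyz2 and Cd68 were also the only 2 at an unadjusted p under 0.05. The sums of the log2 values of the 8 were 42.5 to 43.6 in AC29 and 43.0 to 43.4 in AB1. In 4 of the 8 no array of either line exceeded the floor. Ptprc, the pan-leukocyte marker, and Pecam1, of endothelium, were under the floor in both lines, Cd68 read 6.03 in AC29 and 6.68 in AB1, and Cd3e read 7.01 in AC29 and 6.83 in AB1, below 7.23, the upper mark.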
